A study of Mus musculus with 4 samples.

Results

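The 9 genes described here encode the kinases, phosphatase and adaptors that carry the first steps of T cell receptor (TCR) signalling: the kinases Lck, Fyn and Zap70, the inhibitory kinase Csk and the phosphatase Ptprc (CD45) that act on Lck and Fyn, the scaffold proteins Lat, Lcp2 (SLP-76) and Themis, and the effector enzyme Plcg1. They were taken by gene symbol from the table of fragment counts, and all 9 were found among its 24984 genes. The counts came from TTchem-seq, in which RNA made during a brief exposure of cells to 4-thiouridine (4sU) is chemically enriched and sequenced, so that fragments from introns and exons alike are read as recent transcription. The cells were double positive (DP) thymocytes, which carry both CD4 and CD8, from mice on a C57BL/6 background and cultured for 0.5 hr in fresh medium ahead of the 4sU. There were 2 libraries of each genotype. The WT mice (genotype Tox4;F/F) carried floxed alleles of Tox4, the gene of a chromatin-associated HMG box protein, and no Cre. The cKO mice (genotype Tox4;F/F;Lck+) carried the same floxed alleles and a Cre transgene driven by the proximal Lck promoter, which removes exons 4 to 6 of Tox4 in early thymocytes. The comparison asked which transcription changes go with the loss of Tox4 at the DP stage. Since no library carried Cre with intact Tox4, the effects of the transgene and of Tox4 loss cannot be told apart, and this touches Lck directly, because the transgene brings additional Lck promoter sequence into the cKO cells only. The study describes its sequencing experiments as having biological replicates, without saying which animals gave the 2 libraries of a genotype.

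In a thymocyte, Lck bound to the tails of CD4 and CD8 phosphorylates the CD3 and zeta chains of an engaged TCR, Zap70 docks on them and is itself activated by Lck, and Zap70 then phosphorylates Lat and Lcp2, on which Plcg1 is assembled and switched on. Csk keeps Lck and Fyn inactive by phosphorylating their tails, and Ptprc removes that phosphate. DP thymocytes use this relay to read weak self-ligands during positive selection, for which Themis is needed. The Lck gene has 2 promoters, a proximal one that is used mainly in thymocytes and a distal one that is used mainly in mature T cells.

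Promoter sequences of Lck, Fyn and Zap70 are shown because the transgene uses that of Lck, and because Lck and Fyn, close relatives as proteins, start from unlike DNA. Each is the stretch of 250 bases directly before an annotated start, written 5′ to 3′ on the strand of the gene, from RefSeq on GRCm38.p6, and capitals mark GGAAG or its reverse complement CTTCC, the core that transcription factors of the ETS family bind.
Lck, proximal start, chr4:129558373-129558622, minus strand: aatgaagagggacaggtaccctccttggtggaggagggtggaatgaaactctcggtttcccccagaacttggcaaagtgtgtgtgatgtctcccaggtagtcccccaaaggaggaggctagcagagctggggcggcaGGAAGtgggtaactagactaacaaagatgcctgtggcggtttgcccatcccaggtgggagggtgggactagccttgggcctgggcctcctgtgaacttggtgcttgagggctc
Lck, distal start, chr4:129573642-129573891, minus strand: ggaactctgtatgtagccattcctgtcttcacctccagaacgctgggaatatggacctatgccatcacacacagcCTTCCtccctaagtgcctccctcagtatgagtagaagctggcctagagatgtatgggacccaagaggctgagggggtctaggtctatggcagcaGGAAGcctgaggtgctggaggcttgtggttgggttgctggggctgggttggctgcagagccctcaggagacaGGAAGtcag
Fyn, chr10:39369549-39369798, plus strand: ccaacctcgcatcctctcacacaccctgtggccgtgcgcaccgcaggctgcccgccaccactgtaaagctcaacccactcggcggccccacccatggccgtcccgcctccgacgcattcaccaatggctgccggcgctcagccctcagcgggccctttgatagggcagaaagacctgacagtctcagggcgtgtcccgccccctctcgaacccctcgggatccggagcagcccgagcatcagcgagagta
Zap70, first start, chr1:36761548-36761797, plus strand: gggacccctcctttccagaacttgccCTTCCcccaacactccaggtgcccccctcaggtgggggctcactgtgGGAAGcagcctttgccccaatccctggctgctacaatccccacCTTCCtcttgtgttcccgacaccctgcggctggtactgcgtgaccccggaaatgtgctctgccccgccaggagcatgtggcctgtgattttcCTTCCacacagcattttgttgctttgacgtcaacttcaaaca
The proximal Lck window had a GC content of 58.0% and 3 CG dinucleotides, the distal one 56.4% and 1, and the Fyn window 67.2% and 21, against a median GC content of 52.4% over the 32851 promoter windows of this length in the reference table. The ETS core occurred once in the proximal Lck window, 3 times in the distal one, 4 times in the first window of Zap70 and not in that of Fyn. Zap70 has 2 further annotated starts, whose windows held 4 copies and 0. At least 1 copy was present in 64.1% of all windows, at least 3 in 10.7% and at least 4 in 3.4%. The 9 genes had 15 windows in the table, and 10 of these held the core. The windows of Themis overlap each other, as do those of Ptprc, so the same match can count in more than 1 window. The core of the RUNX family, TGTGG, searched on both strands, was in 12 of the 15 windows and in 49.3% of all windows. The E-box CANNTG was in 12 of the 15 and in 66.2%, and TATAAA, also searched on both strands, in 1 of the 15 and in 12.4%. The motifs were counted separately, so matches of different motifs may share bases. A match is a description of the letters, not a site shown to be bound.

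The 4 libraries held 38429786 to 48690591 fragments each. Tox4, checked first, had 74.0 and 70.3 CPM (fragments on the gene, scaled to the same total in every library) in the WT libraries and 59.3 and 57.2 CPM in the cKO libraries, counted over the whole gene and not over the deleted exons alone. It passed the criteria given below as lower in cKO (log2 fold change -0.31, SE 0.0998, DESeq2 adjusted p = 0.0453). That call was lost in 10 of 13 alternative analyses, with an adjusted p of 0.153 by edgeR, of 0.361 by DESeq2 with a replicate block and of 0.196 to 0.792 by DESeq2 with a library left out, and the direction was the same in each. WT replicate 1 stood apart from the others by Xist, the transcript made by female cells, at 171.7 CPM against at most 2.36 CPM in the other 3 libraries. The methods describe sex-matched littermates, which these values do not show for the WT libraries. All 9 DP markers examined had a mean of at least 1 CPM and summed to 3999 to 4909 CPM, so DP transcripts were present in every library. Of these 9, 2 were called as lower in cKO, Cd8a, described with the coreceptors, and the recombinase gene Rag1, with 917.7 and 1169 CPM in WT against 881.9 and 802 CPM in cKO (log2 fold change -0.31, DESeq2 adjusted p = 0.04995), against 1.57% of all genes. The adjusted p of Rag1 was 0.291 by edgeR, 0.289 by limma voom and 0.257 by DESeq2 with a replicate block. Markers of mature single positive cells summed to 495 to 567 CPM, with 3 of 7 called as higher and 1 as lower, those of the earlier double negative stage to 61.1 to 68.0 CPM and those of B cells to 12.2 to 14.2 CPM. The sums of myeloid markers were lower in both cKO libraries, at 7.65 and 6.74 CPM in WT and 4.63 and 5.46 CPM in cKO. Of these 7 myeloid genes, 3 reached a mean of 1 CPM and 0 were called. Markers of erythroid cells and of thymic epithelium summed to at most 0.729 and 1.19 CPM, and Psmb11 of the latter was at 0 in every library. Cycling cell markers summed to 213.7 CPM in WT replicate 1 and to 357 to 455 CPM in the other 3 libraries. Fewer cells of a type and less RNA made per cell cannot be told apart in such bulk samples.

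All 9 genes were transcribed in every library, and levels between genes were compared as CPM per kb of gene span. Lat stood highest at a mean of 41.0 CPM per kb over the 4 libraries, with a range of 40.02 to 42.65, which placed it above 99.0% of the 11625 genes with a mean of at least 1 CPM. Lck followed at 14.0 CPM per kb (range 12.1 to 15.5), Lcp2 at 13.6 (12.7 to 14.2), Ptprc at 12.3 (11.5 to 13.1), Themis at 10.1 (9.21 to 11.1) and Plcg1 at 9.14 (8.81 to 9.36). Zap70 at 7.24 CPM per kb (6.74 to 7.60), Csk at 6.87 (6.34 to 7.42) and Fyn at 3.94 (3.56 to 4.21) were lowest. In this order Lck and Lcp2, Lcp2 and Ptprc, Themis and Plcg1, and Zap70 and Csk overlapped with their neighbour over the 4 libraries, whereas Lat lay clear of Lck, Ptprc of Themis, Plcg1 of Zap70, and Csk of Fyn. The adaptor Lat was thus transcribed 10.4 times as densely as the kinase Fyn, and even Fyn lay above the median of all tested genes, 1.46 CPM per kb. A level per kb averages over the whole span, of which exons made up 1.88% in Fyn and 22.1% in Lat. The labels describe poly(A) capture where the methods describe enrichment of 4sU-labelled RNA. A library rich in spliced RNA would raise genes with a large exon share in this order, and this was not tested.

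**Figure D1:**
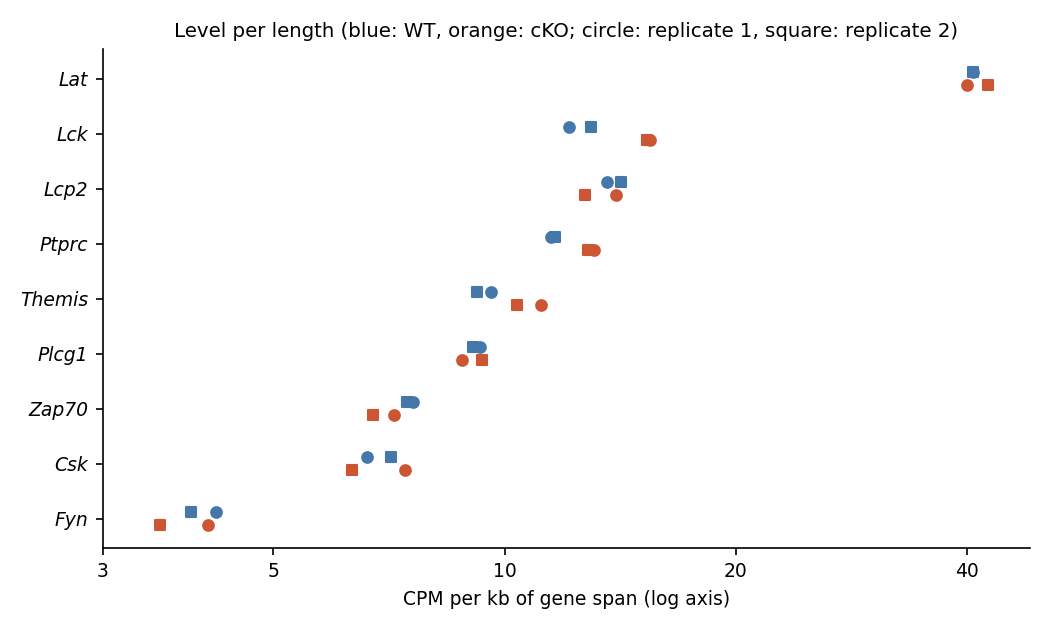
Transcription of the 9 genes per unit of gene length, in CPM per kb on a log axis, with 1 point per library (blue for WT, orange for cKO, circles for replicate 1, squares for replicate 2) and the genes in order of their mean level. Lat stands alone at the top near 41.0 CPM per kb and Fyn alone at the bottom near 3.94, and the genes between them partly overlap with their neighbours.

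Between the genotypes, Lck was the only one of the 9 genes called, and it was higher in cKO. A gene was called when its DESeq2 adjusted p was below 0.05, its fold change at least 1.2 and its mean at least 1 CPM. Of the 9, 1 was called as higher and 0 as lower, against 2.14% of the 11625 genes tested called as higher, 1.57% called as lower and 3.71% called in either direction. The 11625 are all genes with a mean of at least 1 CPM. The independent filtering of DESeq2 left some of them, of low count, without an adjusted p, so these could not be called. The DESeq2 shares are therefore lower than among genes that could be called, which include all 9 members. By edgeR 0 of the 9 passed the same criteria, against 0.499% of all genes, and 3 of the 9 had an unadjusted p under 0.05 by either tool, as had 1570 of the 11625 genes by DESeq2 and 1811 by edgeR. The CPM of the genotypes did not overlap for Lck, Themis and Ptprc, all higher in both cKO libraries, and for Zap70, lower in both, a separation that 24.9% of all genes showed upward and 24.0% downward. Over the list, 4 genes were higher and 5 lower in cKO, and the log2 fold changes had a median of 0.00 and a mean of 0.04, which lie on opposite sides of 0 before rounding (-0.0018 and 0.0423). The median of all tested genes was also 0.00. The fitted log2 differences of the 9 genes ran from -0.12 for Zap70 to 0.29 for Lck.

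**Figure D2:**
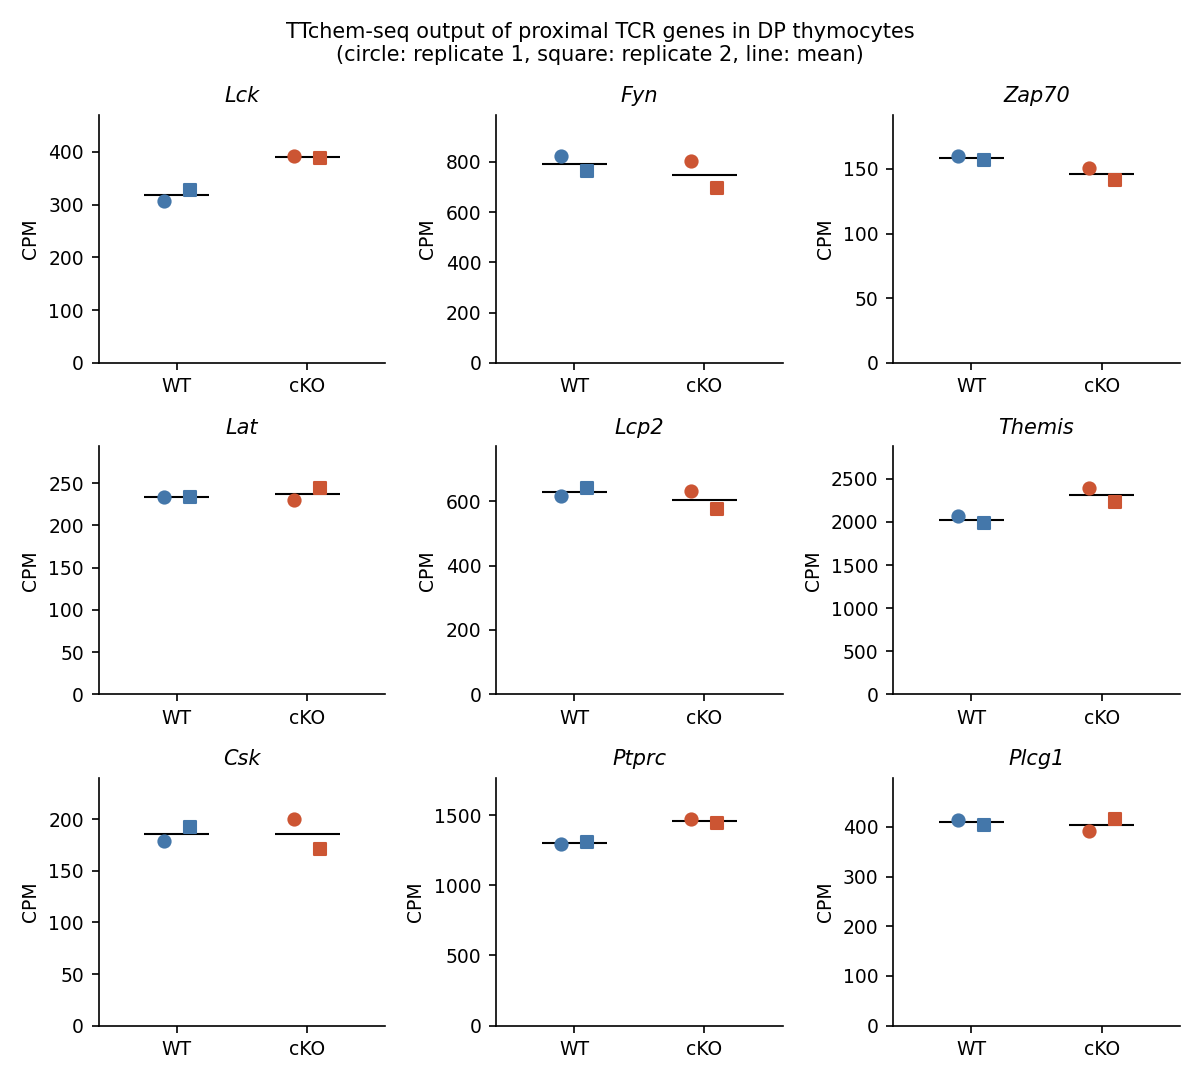
CPM of each of the 9 genes in the 4 libraries, 1 panel per gene with its own axis from 0, with 1 point per library (circle for replicate 1, square for replicate 2) and a line at the mean of each genotype. In the Lck panel the cKO libraries lie close together above both WT libraries, Themis and Ptprc show smaller separations upward and Zap70 one downward, and the other genes overlap.

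**Figure D3:**
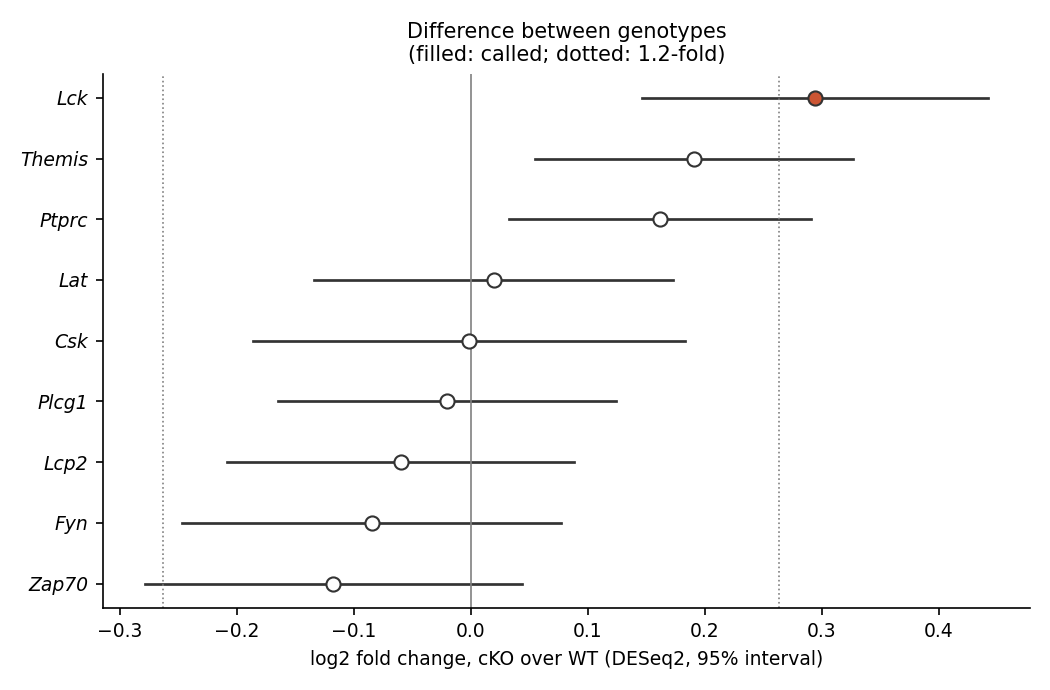
DESeq2 log2 fold change of cKO over WT for the 9 genes, with 95% intervals, a filled point where the gene was called and dotted lines at a fold of 1.2. The intervals of Lck, Themis and Ptprc lie above 0, that of Lck reaching from 0.15 to 0.44, and the other 6 intervals contain 0.

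Lck (chr4:129548344-129573641 on GRCm38, minus strand, 25298 bp), the Src family kinase that starts the relay, had 306.7 and 328 CPM in WT replicates 1 and 2 and 391.7 and 388.1 CPM in cKO replicates 1 and 2. Both cKO libraries were higher than both WT libraries, and they lay closer to each other than the WT libraries did. The means were 317 ± 15.1 CPM in WT and 390 ± 2.52 CPM in cKO (SD, n = 2), on 13071.5 to 15971.5 fragments per library. The increase was 1.23-fold (log2 fold change 0.29, SE 0.0754, 95% interval 0.15 to 0.44, DESeq2 adjusted p = 0.00478). The fold lies just past the required 1.2, and the call rested on the test used, with an adjusted p of 0.124 by edgeR and 0.104 by limma voom. It rested on the libraries too: the log2 fold change was 0.24 without WT replicate 1 (DESeq2 adjusted p = 0.261), 0.30 without cKO replicate 1 (0.414) and 0.30 without cKO replicate 2 (0.459), and 0.35 without WT replicate 2 (0.00466). Over all 13 alternatives the adjusted p ran from 0.00354 to 0.459, and the direction was the same in each.

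The Lck count is a sum over the whole gene and does not separate its promoters. The proximal start lies at position 129558372, 15269 bp downstream of the distal start at 129573641, so transcription from the distal start crosses the proximal promoter. RNA made from any Lck sequence within the transgene would be counted with the endogenous gene, so the part of each in the higher cKO count cannot be told apart. Exons made up 9.08% of the span and introns 90.9%. A microRNA gene annotated within the Lck span on the same strand, Mir8119, lies 561 to 689 bp after the proximal start, with 25 of its 129 bp exonic in Lck. How fragments that fall on both genes were assigned is not stated in the sources used here. It had 8.93 and 10.7 CPM in the WT libraries and 8.43 and 10.1 CPM in the cKO libraries. These values overlapped, with a log2 fold change of -0.09 and an interval from -0.52 to 0.35 that also contains the value of Lck. The 13 genes within 100 kb of Lck included 10 that were tested. None of these 10 was called, with log2 fold changes of -0.16 to 0.57 around a median of 0.01, and the lowest DESeq2 adjusted p among them was 0.346.

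The library profile most like that of Lck among the other 8 genes was that of Ptprc, at a distance of 0.144, and the least like was that of Fyn, at 0.431. The distance is Euclidean, between log2(CPM + 0.5) values centred on the mean of each gene over the 4 libraries. Over the whole table the nearest were Engase at 0.0191, Eid1 at 0.0209 and Ide at 0.0250, against a median distance of 0.373, and 0 of these 3 genes were called. Likeness over 4 libraries is loose and describes only the order and spacing of their values.

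Fyn (chr10:39369799-39565374, plus strand, 195576 bp), the other Src family kinase of thymocytes, had 822.9 and 763.2 CPM in the WT libraries and 802.8 and 695.8 CPM in the cKO libraries. The genotypes overlapped, and the lowest value was that of cKO replicate 2. The log2 fold change was -0.08 (SE 0.0826, 95% interval -0.25 to 0.08, DESeq2 adjusted p = 0.751). Fyn was not called, and the difference between its change and that of Lck was not tested. Per kb, Lck was transcribed 2.88 and 3.32 times as densely as Fyn in WT replicates 1 and 2, and 3.77 and 4.31 times in cKO replicates 1 and 2. The ratio was higher in both cKO libraries, at 4.04 ± 0.382 against 3.10 ± 0.313 in WT (SD, n = 2), and is given as a description.

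Zap70 (chr1:36761798-36782820, plus strand, 21023 bp), the Syk family kinase that binds the phosphorylated receptor chains, had 159.9 and 156.8 CPM in the WT libraries and 150.7 and 141.7 CPM in the cKO libraries. Both cKO libraries were below both WT libraries, by a margin smaller than the gap between the cKO libraries themselves. The log2 fold change was -0.12 (SE 0.0822, 95% interval -0.28 to 0.04), and the DESeq2 adjusted p was 0.578. The nearest profile was that of Lcp2, one of its substrates, at a distance of 0.0908.

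Among the scaffolds, Lat and Lcp2 overlapped between the genotypes and Themis did not. Lat (chr7:126363828-126369568, minus strand, 5741 bp), the membrane adaptor that gathers the signalling complex, had 233.6 and 233.8 CPM in the WT libraries and 229.8 and 244.9 CPM in the cKO libraries. The cKO libraries lay on either side of the WT libraries, with a log2 fold change of 0.02 (SE 0.0783, 95% interval -0.13 to 0.17, DESeq2 adjusted p = 0.960). Lcp2 (chr11:34046928-34092281, plus strand, 45354 bp), the cytosolic adaptor that joins Lat through Gads, had 615.9 and 642.9 CPM in the WT libraries and 633.1 and 576.8 CPM in the cKO libraries. Only cKO replicate 2 was below the WT values, and the log2 fold change was -0.06 (SE 0.0755, 95% interval -0.21 to 0.09, DESeq2 adjusted p = 0.819). Per kb, Lat was transcribed 2.87 to 3.35 times as densely as Lcp2, with overlap between the genotypes.

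Themis (chr10:28668360-28883818, plus strand, 215459 bp), a protein bound to Lat through Grb2 and needed for positive selection, was the longest of the 9 genes and the one with the most fragments, 88180.5 to 96587 per library. It had 2069 and 1984 CPM in the WT libraries and 2400 and 2234 CPM in the cKO libraries. The cKO libraries lay above both WT libraries. The means were 2026 ± 60.1 and 2317 ± 116.9 CPM (SD, n = 2), and the log2 fold change of 0.19 (SE 0.0691, 95% interval 0.06 to 0.33) did not pass the test, with a DESeq2 adjusted p of 0.102 and an edgeR adjusted p of 0.254. Its nearest profile was that of Ptprc, at a distance of 0.0832.

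Of the 2 enzymes with opposite actions on the tails of Lck and Fyn, Csk overlapped between the genotypes and Ptprc did not. Csk (chr9:57626646-57653631, minus strand, 26986 bp), the kinase that holds Lck and Fyn inactive, had 178.6 and 192.2 CPM in the WT libraries and 200.2 and 171 CPM in the cKO libraries. The highest and the lowest value were both from cKO, and the log2 fold change was 0.00 to 2 decimals (-0.0018, SE 0.0941, 95% interval -0.19 to 0.18, DESeq2 adjusted p = 0.996). Ptprc (chr1:138062859-138175305, minus strand, 112447 bp), the transmembrane phosphatase CD45 that releases Lck and Fyn from this block, had 1292 and 1310 CPM in the WT libraries and 1472 and 1444 CPM in the cKO libraries. Both cKO libraries were higher, and the gap between the genotypes was wider than the gap within either. The means were 1301 ± 12.8 and 1458 ± 19.5 CPM (SD, n = 2), and the log2 fold change of 0.16 (SE 0.0658, 95% interval 0.03 to 0.29) did not pass the test, with a DESeq2 adjusted p of 0.174 and an edgeR adjusted p of 0.272. Per kb, the ratio of Lck to Csk was 1.83 and 1.82 in WT replicates 1 and 2, against 2.09 and 2.42 in cKO replicates 1 and 2, and that of Ptprc to Csk 1.74 and 1.64 in WT and 1.76 and 2.03 in cKO. Both ratios were higher in both cKO libraries, by a small margin for Ptprc in cKO replicate 1, and neither was tested.

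Plcg1 (chr2:160731310-160775760, plus strand, 44451 bp), the phospholipase that makes the second messengers diacylglycerol and inositol trisphosphate, had 413.1 and 404.7 CPM in the WT libraries and 391.9 and 415.9 CPM in the cKO libraries. The cKO libraries lay on either side of the WT libraries, as for Lat, whose profile was the nearest at a distance of 0.0455. The log2 fold change was -0.02 (SE 0.0737, 95% interval -0.16 to 0.12, DESeq2 adjusted p = 0.955).

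The division of calls into higher and lower was unlike between short and long genes, which was not tested, so the members were set beside genes of like length. Among the 6893 tested genes shorter than 30 kb, the class of Lck, Zap70, Lat and Csk, the median log2 fold change was -0.02, with 61 genes called as higher and 109 as lower. Among the 3316 genes of 30 to 100 kb, the class of Lcp2 and Plcg1, it was 0.03, with 95 and 36 called. Among the 1416 genes of at least 100 kb, the class of Fyn, Themis and Ptprc, it was 0.04, with 93 and 37 called. Lck, the called gene, was thus in the class where calls were mostly downward, and the not called Themis and Ptprc were in one where calls were mostly upward. Genes on the opposite strand that overlap members were Gm16364 with Fyn (9304 bp shared), 4930469K13Rik with Lcp2 (its whole span of 45354 bp) and Zhx3 with Plcg1 (5314 bp), and Mir7058 lies within Lat on the same strand. Zap70, Themis, Csk and Ptprc had no overlapping gene in the table.

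**Figure D4:**
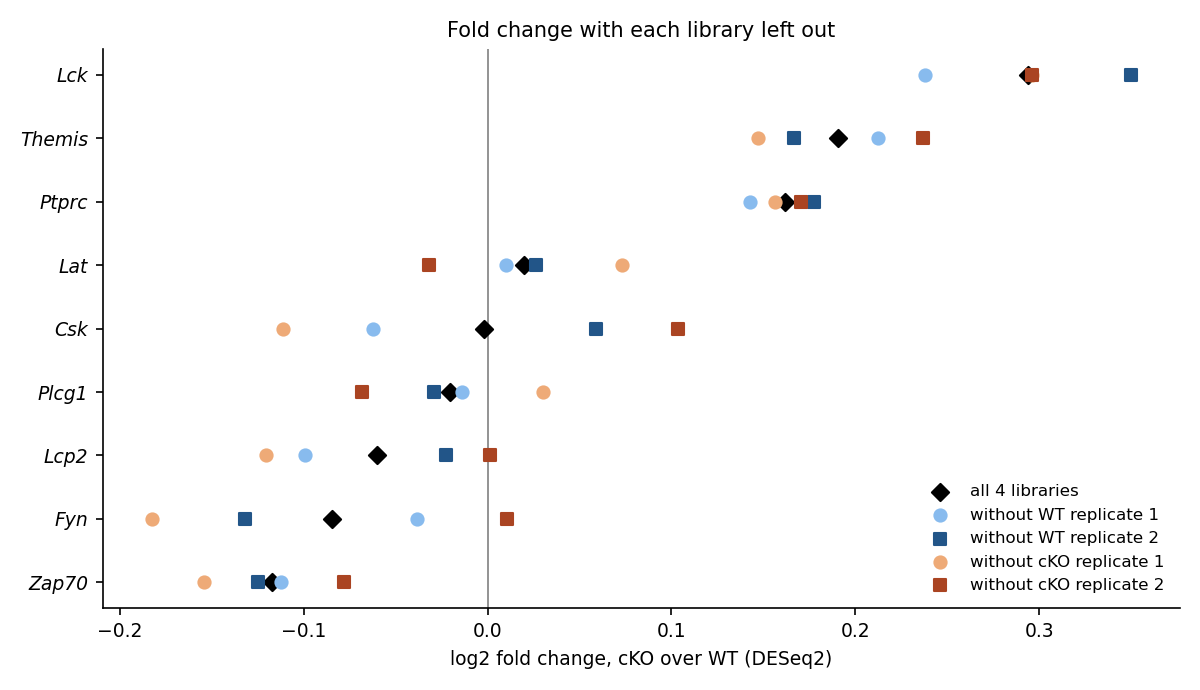
DESeq2 log2 fold change of cKO over WT for the 9 genes with all 4 libraries (diamonds) and with each library left out in turn (circles for replicate 1 and squares for replicate 2 of a genotype). Lck stays between 0.24 and 0.35, and its points without either cKO library lie on each other near 0.30, while Csk, Fyn, Lat, Lcp2 and Plcg1 cross 0.

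The rest of the receptor-proximal pathway was followed with 55 further genes, all of which were tested. Of these, 1 was called as higher in cKO and 4 as lower, 9.09% against 3.71% of all genes, and 21 were higher and 34 lower. The list was chosen with earlier results of these data known, so its share of calls is only a description. All 55 genes had a DESeq2 adjusted p, which some of the genes behind the 3.71% did not. The log2 fold changes of the 55 genes had a median of -0.05 against 0.00 for all genes. The CPM of the genotypes did not overlap upward for 12 and downward for 23 of them, where all genes gave 24.9% and 24.0%. By edgeR 0 of the 55 were called, while 14 had an unadjusted p under 0.05, as had 1811 of the 11625 genes tested. The calls depended on the libraries, with 3 genes called without WT replicate 1, 6 without WT replicate 2, 2 without cKO replicate 1 and 1 without cKO replicate 2. By role, the 7 receptor and coreceptor chains were mostly lower (1 higher, 6 lower, median -0.10), as were the 16 negative regulators (4 higher, 12 lower, median -0.07). Over all genes tested, 5837 were higher and 5788 lower. These counts go by sign alone and include changes near 0. Of the 7 chains only Cd8a was called, and of the 16 negative regulators 1 was called as higher and 1 as lower. The 6 further kinases (3 and 3, median -0.04), the 20 further adaptors (10 and 10, median 0.01) and the 6 exchange factors and effectors (3 and 3, median 0.01) were evenly divided.

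Among the receptor and coreceptor chains, Cd8a, the CD8 alpha chain that brings Lck to the receptor, had 498 and 629.3 CPM in the WT libraries and 394.7 and 382.9 CPM in the cKO libraries. Both cKO libraries were lower, and the WT libraries differed widely from each other. It fell by 0.54 on the log2 scale (SE 0.1001, DESeq2 adjusted p = 1.21e-05, edgeR adjusted p = 0.108). The fitted value was -0.71 when WT replicate 1 was left out and -0.35 when WT replicate 2 was, and Cd8a was called with each of the 4 libraries left out. Cd8a is also one of the DP markers.

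Among the kinases, Txk, a kinase of the Tec family, had 622.8 and 494 CPM in the WT libraries and 434.1 and 427.1 CPM in the cKO libraries. It was highest in WT replicate 1 and fell by 0.38 on the log2 scale (SE 0.0966, DESeq2 adjusted p = 0.00479, edgeR adjusted p = 0.197). Without WT replicate 1 its log2 fold change was -0.21 and its DESeq2 adjusted p was 0.408, and the call was also lost without either cKO library.

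Among the adaptors, Grap, a relative of Grb2, had 270.6 and 247.4 CPM in the WT libraries and 220.2 and 196.8 CPM in the cKO libraries. Grap was lower in both cKO libraries and fell by 0.32 on the log2 scale (SE 0.0862, DESeq2 adjusted p = 0.0103, edgeR adjusted p = 0.160). The call was lost without WT replicate 1, without either cKO library and with a replicate block in DESeq2 (adjusted p = 0.0873). Pag1, the membrane protein that recruits Csk, had 1451 and 1580 CPM in the WT libraries and 1774 and 1775 CPM in the cKO libraries, with a log2 fold change of 0.22 and a DESeq2 adjusted p of 0.0453, and was not called because its fold of 1.17 was below 1.2. Tespa1, a protein of the Lat and Plcg1 complex, had 26.9 and 30.4 CPM in the WT libraries against 36.3 and 37.3 CPM in the cKO libraries, with a log2 fold change of 0.36 and a DESeq2 adjusted p of 0.106. Unc119, an activator of Lck, was near the lower limit with 4.36 and 2.90 CPM in the WT libraries against 2.32 and 2.49 CPM in the cKO libraries, a log2 fold change of -0.59 with an SE of 0.378 and a DESeq2 adjusted p of 0.522. Leaving out WT replicate 1 gave -0.28 for Unc119, and leaving out WT replicate 2 gave -0.86.

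Among the negative regulators, Ptpn22, the phosphatase that dephosphorylates Lck and Zap70, had 244.4 and 234.2 CPM in the WT libraries and 297 and 320.1 CPM in the cKO libraries. It was the gene called as higher, by 0.36 on the log2 scale (SE 0.0790, DESeq2 adjusted p = 3.73e-04, edgeR adjusted p = 0.0932), and the call was lost without cKO replicate 2. Dgka, which removes the diacylglycerol that Plcg1 makes, had 444.2 and 412.4 CPM in the WT libraries and 336.6 and 331.5 CPM in the cKO libraries. Dgka was lower in both cKO libraries and fell by 0.36 on the log2 scale (SE 0.0741, DESeq2 adjusted p = 1.22e-04, edgeR adjusted p = 0.0815), a call that was lost without either cKO library.

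**Figure D5:**
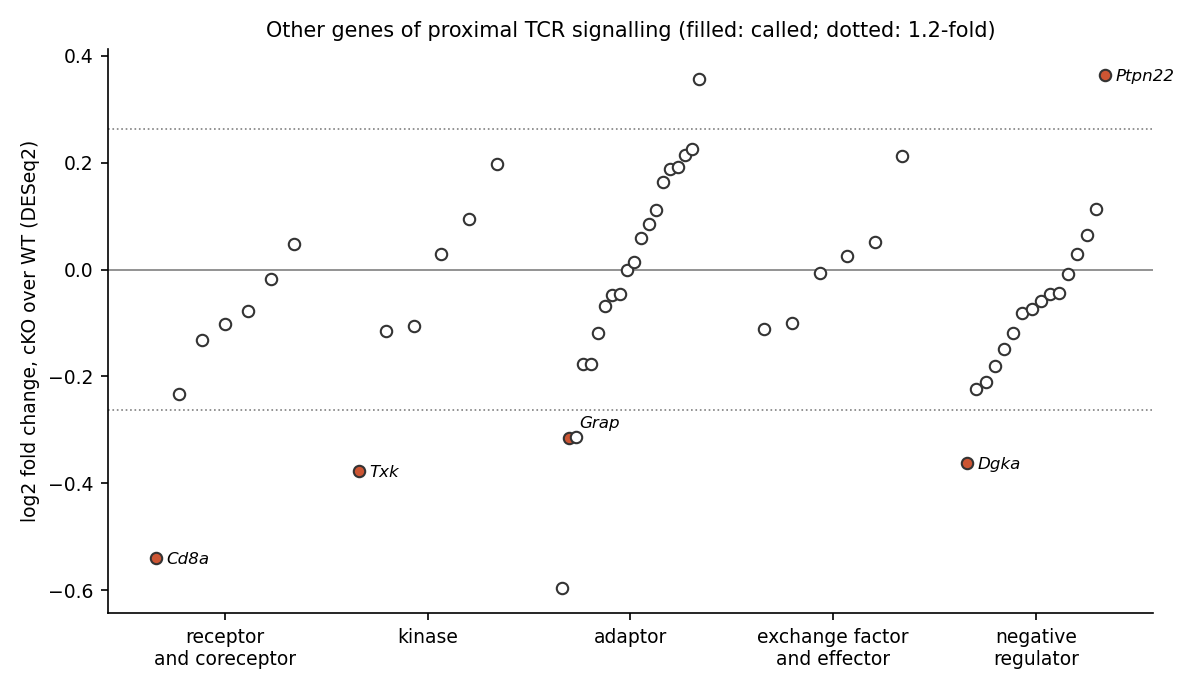
DESeq2 log2 fold change of cKO over WT for the 55 other receptor-proximal genes, grouped by role and sorted within a role, with 1 point per gene, called genes filled and named, and dotted lines at a fold of 1.2. Ptpn22 is the called gene above 0, Cd8a, Txk, Grap and Dgka are those below, and most receptor chains and negative regulators lie below 0.

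Related genes, several of which serve the same steps in other blood cells, were also examined. Of 14 such genes, 9 reached a mean of 1 CPM and 0 of these were called by DESeq2 or edgeR, against 3.71% and 0.499% of all genes, with 4 higher and 5 lower in cKO around a median of -0.10 on the log2 scale. Of the Src family, Lyn had means of 10.8 CPM in WT and 9.62 CPM in cKO, Src 3.39 and 3.87, Yes1 2.77 and 3.60, and Fgr 1.11 and 2.31 (log2 fold change 1.07, edgeR adjusted p = 0.228), while Blk was below 1 CPM. Syk, the relative of Zap70, had means of 46.4 and 38.1 CPM (log2 fold change -0.29, SE 0.122, DESeq2 adjusted p = 0.199). Per kb, Zap70 was transcribed 11.3 and 10.01 times as densely as Syk in the WT libraries and 11.7 and 12.2 times in the cKO libraries. Plcg2, the relative of Plcg1 used in B cells, had 21.2 and 19.9 CPM, and Plcg1 exceeded it per kb by 57.4 to 65.6 times over the 4 libraries. Lat2 had means of 28.3 and 24.1 CPM, Matk, the relative of Csk, 2.18 and 1.92, and Blnk, the B cell counterpart of Lcp2, 7.39 and 11.4 (log2 fold change 0.62, DESeq2 adjusted p = 0.185). DESeq2 gave no adjusted p for Fgr and Matk, which its independent filtering set aside, so these could not be called by it. Of the 9 genes, 3 had an unadjusted p under 0.05 by DESeq2 and 4 by edgeR. Clnk, Themis2 and Themis3 were below 1 CPM, and Themis3 was at 0 in every library.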

How the data were processed

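The authors labelled DP thymocyte RNA with 4sU and sequenced the enriched RNA. The sources differ on library preparation: the labels describe poly(A) capture and the methods rRNA depletion. The submitters' processing notes list fastp 0.13.1, STAR 2.7.9a and featureCounts 1.6.1 on mm10, and the methods name STAR for counting. The deposited table held expected counts of fragments per gene, of which 8.61% were fractional, over the whole gene span with introns. Totals were 38429786 to 48690591 fragments per library, and intervals and SDs rest on 2 libraries per genotype. No molecular identifiers were described, and the yeast spike-in was not used.

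Expected counts were rounded and tested over all genes at once with DESeq2 1.42.0 (default size factors, Wald test, Benjamini-Hochberg, independent filtering), as in the methods, with a call at adjusted p below 0.05, fold of at least 1.2 and mean CPM of at least 1. CPM used the totals of the table. Alternatives were edgeR 4.0.16 (quasi-likelihood), limma 3.58.1 (voom), TMM and total-count factors, a CPM filter, no independent filtering, rounding down, a replicate block and leaving out each library. The scripts were tested on simulated data. Libraries were grouped by title. Promoters came from RefSeq on GRCm38.p6, and no protein sequences were used here.

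The 9 members and the lists of pathway genes, relatives and markers were chosen with earlier results of these data known. Named were the 9 members, Tox4, every called pathway gene, the 3 with the largest increase and the 3 with the largest decrease among those with a mean of at least 1 CPM, relatives of at least 1 CPM, the nearest profiles, and genes overlapping a member. Blk, Clnk, Themis2, Themis3, Rag1, Psmb11, Xist and Rn45s were named after their values were seen.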

Additional observations from a re-analysis of the deposited data

How the results depend on the processing

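Lck was higher in cKO under all 13 alternatives, but its call depended on the method. The number of the 9 genes called, 1 in the reported test, was 0 with edgeR, 0 with limma voom, and 0 with a replicate block in DESeq2 (Lck adjusted p = 0.111) or in edgeR (0.189). It was 0 to 1 when each library was left out. The 5 calls among the 55 other pathway genes became 0 with edgeR, 0 with limma voom, 4 with DESeq2 and the replicate block, 0 with edgeR and the block, and 1 to 6 with a library left out. Over all genes, the 431 calls became 58 with edgeR, 61 with limma voom, 193 with DESeq2 and the replicate block, 28 with edgeR and the block, and 89 to 446 with a library left out. Across 11625 genes, libraries of the same number did not deviate together (r = -0.03). The sources do not say that the numbers mark a litter or batch, so they were not taken to pair the libraries. With 2 libraries per genotype this cannot be decided. The ribosomal RNA precursor Rn45s went with the number, at 2.712% of fragments in WT and 2.442% in cKO replicate 1. It was at 4.305% in WT and 4.046% in cKO replicate 2. With a library left out, the lone library of a genotype is assumed to vary like the other genotype. Signs turned only for genes that were not called. Csk was at 0.0015 with library totals, and with a library left out Csk ran from -0.1111 to 0.1033 (0.0588 without WT replicate 2), Fyn from -0.1827 to 0.0107, Lat from -0.0318 to 0.0729, Lcp2 from -0.1204 to 0.0013 and Plcg1 from -0.0686 to 0.0303, with the turned sign without cKO replicate 2 in all but Plcg1, where it was without cKO replicate 1. The median of the 9 genes turned with library totals, from -0.0018 to 0.0015. Without division by gene length, 1 of the 9 ranks of level was kept, since the genes differ in length. The cause of the other differences was not tested. The fewest fragments in a library for any of the 9 genes were 5635, for Zap70, and the effect of depth or of more libraries on the calls was not tested.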
